A study of Mus musculus with 12 samples.

Results

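Glutathione S-transferases join glutathione to reactive compounds, and the genes described here are 10 mouse members of that enzyme family: Gsta1, Gsta3 and Gsta4 of the alpha class, Gstm1, Gstm2, Gstm3, Gstm5 and Gstm7 of the mu class, Gstp1 of the pi class and Gstt1 of the theta class. They are 10 of the 54532 genes listed for each tissue of an RNA-seq series. The group was chosen by measured values: it was picked because Gstm7 differed between knockout and control in opposite directions in crypts and in tumors. The values of all 10 genes in these same comparisons are therefore a description and carry no test.

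The series holds 12 libraries in 4 groups of 3. Small intestinal crypts came from adult wild-type mice and from adult Ctnnb1Δi.enh mice, which lack both copies of ieCtnnb1, an intestinal enhancer of Ctnnb1, the gene of β-catenin. Colon tumors came from mice aged 5 months. The tumor controls carried ApcMin/+, a truncating germline allele of the Wnt inhibitor Apc, and the tumor knockouts carried ApcMin/+ together with Ctnnb1Δi.enh. The deletion was made in the germline with CRISPR on a C57BL/6 background, so every cell type of the knockout mice carries it. The crypt preparation was released with EDTA and filtered, and the tumor RNA came from tumor tissue with no sort, so those libraries can hold cells other than epithelium. Levels are FPKM, fragments per kilobase of gene on a scale set for each library, in a separate table for each tissue. That scale was not the number of fragments on genes. It stood at 1.55e+07 and 1.53e+07 fragments for wild-type crypt replicates 1 and 2, which held 14457896 and 16042558. The crypt libraries held between 14457896 and 16074777 fragments on genes, and the tumor libraries between 14648696 and 16156712. The study counts these profiles in mice, so the libraries of a group were taken as separate animals, which the sample labels themselves do not state.

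Cytosolic glutathione S-transferases act as dimers on electrophiles such as epoxides, quinones and lipid peroxidation products, and the conjugates leave the cell through export pumps. Many of the genes are targets of NRF2, a transcription factor that responds to oxidants and binds antioxidant response elements as a dimer with small MAF proteins. In the intestine the enzymes are found mainly in epithelial cells, which meet compounds from food and bile.

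The target of the deletion was read first as a check of the labels. In crypts, Ctnnb1 was 120.6, 134 and 123 FPKM in wild type and 102, 104 and 105 FPKM in Ctnnb1Δi.enh. In tumors, it was 299, 363 and 358 FPKM in ApcMin/+ and 279, 248 and 250.2 FPKM with Ctnnb1Δi.enh. Each knockout library lay below each control library of its tissue, in the direction the labels give. Axin2, a Wnt target, averaged 21.2 ± 1.79 (SD, n = 3) and 16.5 ± 2.56 FPKM (SD, n = 3) in wild-type and knockout crypts, and 102 ± 4.83 (SD, n = 3) and 81.3 ± 3.81 FPKM (SD, n = 3) in control and knockout tumors, again without overlap.

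Some libraries stood apart in ways the groups do not describe. Knockout crypt replicate 1 held the highest value of the 6 crypt libraries for 9 of the 10 genes, and wild-type replicate 3 held it for the other, Gsta3. Xist, which is transcribed from the inactive X of females, was at 114 FPKM in control tumor replicate 3 and at 61.4 FPKM in knockout tumor replicate 3, and below 0.1 FPKM in the other 10 libraries. The tumor groups thus each held 1 library from a female, and all 6 crypt libraries had the pattern of males. Markers of stomach epithelium, led by Tff2, summed to 161 and 91.7 FPKM in wild-type crypt replicates 1 and 2, to 4.25 FPKM in wild-type replicate 3 and to between 2.07 and 6.10 FPKM in the knockout crypts. Paneth and stem cell markers were present in crypts and colonocyte markers in tumors, with no gene of these lists at 0 in all 6 libraries of its tissue.

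In crypts, 9 of the 10 genes had a higher mean in Ctnnb1Δi.enh than in wild type, beside 52.8% of all tested genes with a log2 difference above 0. Of the 10, Gstm7, Gstm5, Gsta4 and Gstp1 had each knockout library above each wild-type library. Gsta3, the lowest of the 10, was the exception, and it too was higher with quantile normalization and with voom. These 4 of 10 stand beside 6.79% of the 14176 genes tested in crypts whose knockout libraries lay all above, and 5.15% whose knockout libraries lay all below. None of the 10 lay all below. With 1 library left out, the number of genes with a higher log2 mean was 8 without wild-type replicate 1 and 8 without knockout replicate 1. The values that chose the genes include this contrast, so nothing is read from the count. The median log2 difference of the 10 was 0.57, and that of all tested genes was 0.01, where every difference is one of log2(FPKM + 0.5) and so is too small for genes at low levels. All 10 passed the filter of a mean of at least 0.5 FPKM in each tissue. In bulk tissue, fewer cells of a type and less RNA per cell cannot be told apart.

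In tumors the 10 genes went both ways. Gstm7, Gstm1 and Gstm5 were lower with Ctnnb1Δi.enh, Gsta3 differed by less than 0.01, and the other 6 had higher means, beside 51.3% of all tested genes with a log2 difference above 0. Gstm2 was the 1 gene of 10 with each knockout library above each control, beside 11.4% of the 16743 genes tested in tumors, and Gstm1 was the 1 gene of 10 with each below, beside 10.6%. Again the contrast was used to choose the genes and nothing is read from these counts. Their median log2 difference was 0.21, and that of all tested genes was 0.01. The median of the 10 ran from 0.12 without control replicate 3 to 0.40 without control replicate 1, and was 0.12 with quantile normalization. The directions of the 9 genes other than Gsta3 were the same with the tumor libraries rescaled to the same total, rescaled without the 50 highest genes, quantile normalized or fitted with voom.

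**Figure D1:**
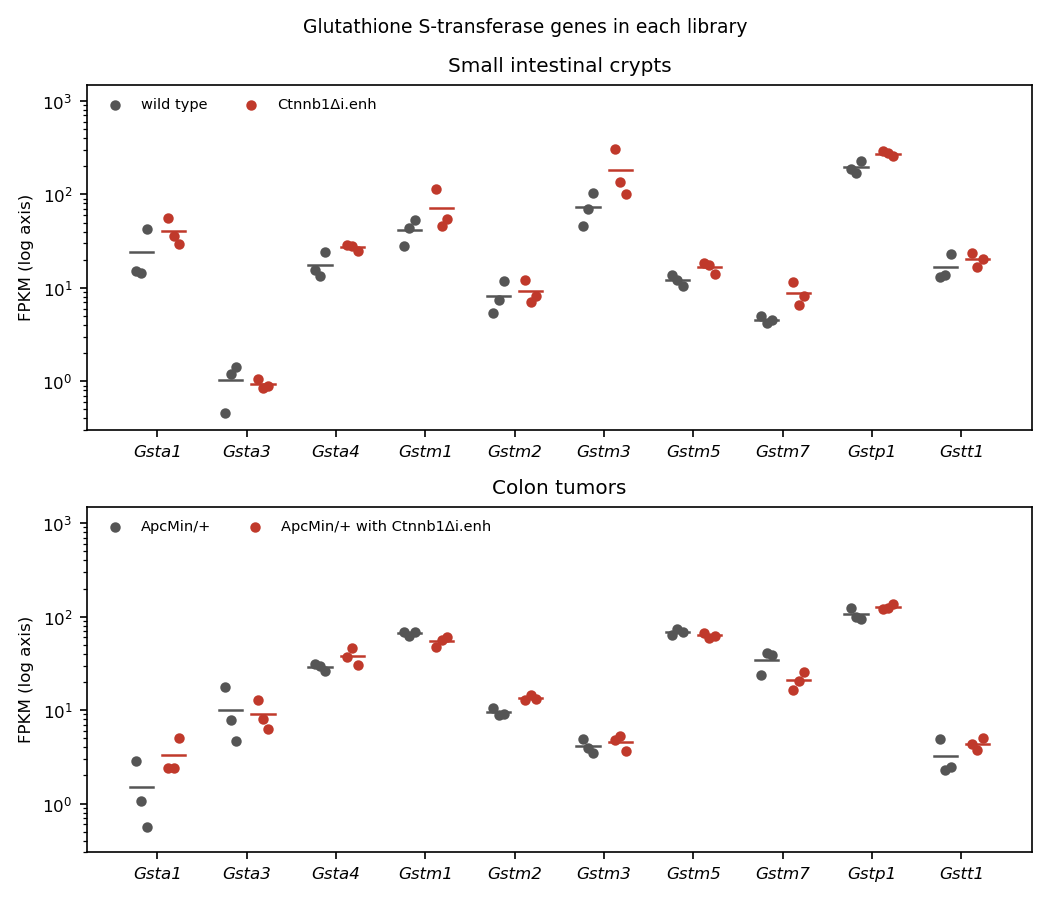
FPKM of the 10 genes on a log axis, with 1 point for each library and a line at the mean of each group of 3, in crypts (top) and tumors (bottom). In crypts the knockout points of Gstm7 lie between 6.56 and 11.6 and the wild-type points between 4.17 and 4.96, and in tumors the order of the means is the opposite.

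Across all genes, limma found 0 genes with an adjusted p under 0.05 in crypts, where 494 genes (3.48%) had an unadjusted p under 0.05 and a higher mean in the knockout, and 335 (2.36%) a lower one. voom on the recovered fragments also gave 0, with 455 higher and 350 lower. In tumors limma found 0 as well, with 1417 (8.46%) and 1004 (6%) at that unadjusted p, and voom gave 0 with 1433 and 1108. The balance of the unadjusted counts depended on scaling. Without the 50 highest genes it was 298 higher and 504 lower in crypts and 1079 and 1340 in tumors, and in tumors it was 1075 and 1346 with the same total and 1111 and 1284 with quantile normalization, so that lower genes were then the more numerous. The lowest adjusted p by limma was 0.728 in crypts and 0.269 in tumors.

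Gstm7 encodes a mu-class subunit, and its values are those that chose the group. In crypts it was at 4.96, 4.17 and 4.50 FPKM in wild type and at 11.6, 6.56 and 8.09 FPKM in Ctnnb1Δi.enh. The wild-type libraries lay close together, all 3 knockout libraries lay above them, and knockout replicate 1 was the highest. The log2 difference was 0.84 (SE 0.20), or 0.63 without knockout replicate 1. In tumors Gstm7 was at 23.5, 41.0 and 38.9 FPKM in ApcMin/+ and at 16.3, 20.4 and 25.8 FPKM with Ctnnb1Δi.enh. Control replicates 2 and 3 lay above all knockout libraries, while control replicate 1 lay between knockout replicates 2 and 3, so the groups overlapped. The log2 difference was -0.70 (SE 0.25), -0.95 without control replicate 1 and -0.53 without knockout replicate 1. Between 102 and 302 fragments in crypts and between 419 and 1082 in tumors stood behind these values. The difference between the tissues was not tested, because the tables were normalized separately.

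**Figure D2:**
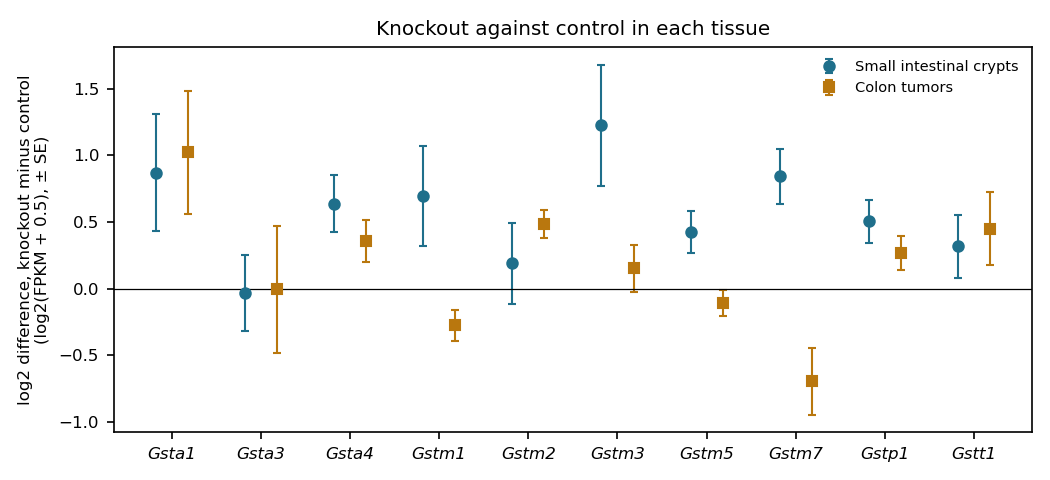
Difference of knockout minus control in log2(FPKM + 0.5), with its standard error, for each of the 10 genes in crypts (circles) and tumors (squares). Gstm7 lies at 0.84 in crypts and at -0.70 in tumors, and no p-value is given for any of these points.

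Gstm7 lies in the mu-class cluster on chromosome 3 (GRCm38), where 7 genes span 149 kb at chr3:107895821-108044894, in the order Gstm5, Gstm7, Gstm6, Gstm3, Gstm2, Gstm1 and Gstm4. Gstm5 is on the plus strand and the other 6 are on the minus strand. Gstm7 itself is at chr3:107926334-107931817. The first 60 coding bases of 4 members whose annotated coding sequences all have 657 bases are shown because reads of near-identical genes could be counted for the wrong copy. They come from the GENCODE M21 transcripts, and capitals mark bases that differ from Gstm1.
Gstm1: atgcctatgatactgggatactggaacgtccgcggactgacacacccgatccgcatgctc
Gstm2: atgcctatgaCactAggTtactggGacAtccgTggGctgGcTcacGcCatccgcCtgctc
Gstm3: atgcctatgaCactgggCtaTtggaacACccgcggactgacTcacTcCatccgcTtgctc
Gstm7: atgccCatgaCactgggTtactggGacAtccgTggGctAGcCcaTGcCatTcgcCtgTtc

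In this stretch 16 bases of Gstm7, 12 of Gstm2 and 9 of Gstm3 differed from Gstm1. Over the whole coding sequence, Gstm7 was 85.4% identical to Gstm2, 83.2% to Gstm1, 82.6% to Gstm3 and 71.7% to Gstm5. Of the 1228 stretches of 150 bases in the Gstm7 transcript, the length of 1 read, 0 were also present in a transcript of another gene. The same count was 0 for Gstm1 and Gstm2, 40 of 1162 for Gstm3 (shared with Gm8834) and 29 of 796 for Gstm5 (shared with 4933431E20Rik, which overlaps it on the opposite strand). The use of strand in counting is not given in the sources used here, so reads from the stretch where Gstm5 and 4933431E20Rik overlap cannot be told apart.

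Gstm3 was the mu-class gene with the highest mean in crypts. It was at 45.8, 70.1 and 103 FPKM in wild type and at 309, 136 and 101 FPKM in Ctnnb1Δi.enh. Knockout replicate 1 stood far above the other 5 libraries, and knockout replicate 3 fell inside the wild-type range. The log2 difference of 1.22 (SE 0.46) was 0.76 without knockout replicate 1. In tumors Gstm3 was at 4.95, 3.88 and 3.47 FPKM in ApcMin/+ and at 4.83, 5.33 and 3.67 FPKM with Ctnnb1Δi.enh, with overlapping groups. Here the log2 difference of 0.15 (SE 0.18) was 0.05 without knockout replicate 2 and 0.29 without knockout replicate 3.

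Gstm1 had the same outlying library. Its crypt values were 28.0, 44.2 and 53.7 FPKM in wild type and 113, 45.9 and 55.1 FPKM in the knockout. Knockout replicates 2 and 3 were next to wild-type replicates 2 and 3, and the log2 difference of 0.69 (SE 0.38) was 0.31 without knockout replicate 1. Its tumor values were 68.0, 61.8 and 68.6 FPKM in ApcMin/+ and 47.2, 56.4 and 60.5 FPKM with Ctnnb1Δi.enh. All 3 knockout tumors lay below all 3 controls, with a small gap between control replicate 2 and knockout replicate 3. The tumor log2 difference of -0.28 (SE 0.11) was -0.18 without knockout replicate 1 and -0.43 with quantile normalization.

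Gstm5, the first gene of the cluster and the 1 on the plus strand, was at 13.8, 12.2 and 10.5 FPKM in wild-type crypts and at 18.3, 17.5 and 13.9 FPKM in knockout crypts. The groups did not overlap, but wild-type replicate 1 and knockout replicate 3 were almost equal, and the log2 difference was 0.43 (SE 0.16). In tumors it was at 63.0, 73.9 and 67.9 FPKM in ApcMin/+ and at 67.6, 59.4 and 62.4 FPKM with Ctnnb1Δi.enh, which overlapped. Its tumor log2 difference of -0.11 (SE 0.10) was -0.05 without control replicate 2, -0.17 without control replicate 1 and -0.25 with quantile normalization. 4933431E20Rik, on the opposite strand, averaged 5.23 and 6.15 FPKM in wild-type and knockout crypts and 6.27 and 5.32 FPKM in control and knockout tumors.

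Gstm2 was at 5.35, 7.44 and 11.8 FPKM in wild-type crypts and at 12.3, 7.07 and 8.23 FPKM in knockout crypts. These values were mixed between the groups, and the log2 difference of 0.19 (SE 0.31) was -0.06 without wild-type replicate 1 and 0.47 without wild-type replicate 3. In tumors it was at 10.6, 8.77 and 9.12 FPKM in ApcMin/+ and at 12.8, 14.4 and 13.2 FPKM with Ctnnb1Δi.enh. Here the groups were tight and did not overlap, and the log2 difference was 0.48 (SE 0.10), opposite in sign to those of Gstm1 and Gstm7 in the same cluster.

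The mu-class genes Gstm4 and Gstm6 of the cluster were outside the group of 10. Gstm6, which follows Gstm7, averaged 5.66 FPKM in wild-type and 13.8 FPKM in knockout crypts, with each knockout library above each control (log2 difference 1.31, SE 0.37, limma adjusted p = 0.757). Gstm4, at the other end, averaged 4.54 and 8.13 FPKM, also without overlap (log2 difference 0.75, SE 0.19, limma adjusted p = 0.757). In tumors the groups overlapped for both, at 6.70 and 6.39 FPKM for Gstm6 and at 5.60 and 5.73 FPKM for Gstm4.

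**Figure D3:**
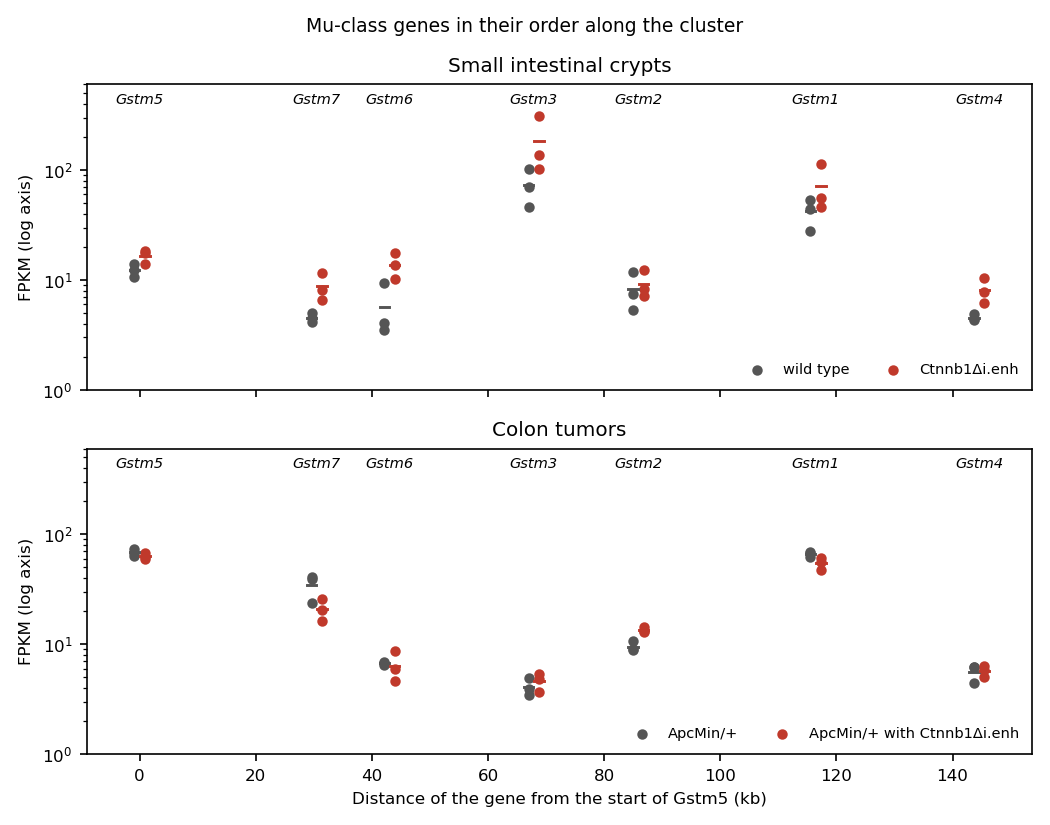
FPKM (log axis) of the 7 mu-class genes placed by their distance in kb from the start of Gstm5, with 1 point for each library and a line at each group mean. In crypts the knockout mean lies above the wild-type mean for each of the 7 genes, and in tumors it lies below the control mean for Gstm5, Gstm7, Gstm6 and Gstm1.

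Gstp1, the pi-class gene, had the highest mean of the 10 in each of the 4 groups, although Gstm3 lay above it in knockout crypt replicate 1. In crypts it was at 185, 169.7 and 229 FPKM in wild type and at 289, 278 and 255 FPKM in Ctnnb1Δi.enh. All 3 knockout libraries lay above all wild-type libraries, with wild-type replicate 3 the closest to them, and the log2 difference was 0.50 (SE 0.16). In tumors Gstp1 was at 124, 99.9 and 95.1 FPKM in ApcMin/+ and at 121, 124 and 136 FPKM with Ctnnb1Δi.enh. Control replicate 1 reached the knockout range, and the log2 difference of 0.27 (SE 0.13) was 0.08 with quantile normalization.

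The level of Gstp1 is uncertain in one respect. Its coding sequence was 98.1% identical to that of Gstp2, and 281 of the 672 stretches of 150 bases in its transcript (41.8%) were present in Gstp2 or in the pseudogene Gstp-ps. The handling of reads that match several genes is not given in the sources used here. Gstp-ps was listed at a mean of 42.5 FPKM in wild-type and 67.0 FPKM in knockout crypts, without overlap, and Gstp2 at 8.54 and 11.6 FPKM. In tumors Gstp2 averaged 10.01 FPKM in controls and 15.7 FPKM in knockouts, each knockout library above each control (log2 difference 0.63, SE 0.12, limma adjusted p = 0.269).

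The alpha-class enzymes conjugate products of lipid peroxidation, and Gsta4 is known for its activity on 4-hydroxynonenal. Gsta4 was at 15.4, 13.5 and 24.3 FPKM in wild-type crypts and at 28.5, 27.9 and 24.9 FPKM in knockout crypts. The knockout libraries were tight, and wild-type replicate 3 lay just below them and well above the other wild-type libraries. The log2 difference of 0.64 (SE 0.22) was 0.88 without that library. In tumors Gsta4 was at 31.5, 29.5 and 26.4 FPKM in ApcMin/+ and at 37.2, 46.0 and 30.4 FPKM with Ctnnb1Δi.enh, where knockout replicate 3 fell inside the control range. The log2 difference of 0.36 (SE 0.16) was 0.21 without knockout replicate 2.

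Gsta1 was at 15.2, 14.4 and 42.6 FPKM in wild-type crypts and at 55.8, 35.9 and 29.6 FPKM in knockout crypts. Wild-type replicate 3 lay above knockout replicates 2 and 3, so the groups overlapped, and the log2 difference of 0.87 (SE 0.44) ranged from 0.60 to 1.37 when 1 library was left out. In tumors it was low, at 2.84, 1.08 and 0.560 FPKM in ApcMin/+ and at 2.41, 2.41 and 5.03 FPKM with Ctnnb1Δi.enh. The groups overlapped through control replicate 1, and as few as 8 fragments stood behind a value. The log2 difference of 1.02 (SE 0.46) ran from 0.65 without control replicate 3 to 1.48 without control replicate 1.

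Of the 10 genes, Gsta1 shared the most sequence with others: 535 of its 726 stretches of 150 bases (73.7%) were also in Gsta2, Gm3776 or Gm10639. Gsta2, which is outside the group, was listed at 0.110, 0.444 and 0.976 FPKM in wild-type and at 2.04, 1.57 and 1.81 FPKM in knockout crypts. These did not overlap (log2 difference 1.28, SE 0.33, limma adjusted p = 0.757), but only 2 to 39 fragments stood behind them. Values of Gsta1 and Gsta2 depend on how shared reads were assigned.

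Gsta3 was the lowest of the 10 in crypts, at 0.461, 1.19 and 1.41 FPKM in wild type and at 1.05, 0.838 and 0.901 FPKM in the knockout. The knockout values lay inside the wild-type range, and the log2 difference of -0.03 (SE 0.29) ran from -0.33 without wild-type replicate 1 to 0.16 without wild-type replicate 3. In tumors it was at 17.9, 7.76 and 4.62 FPKM in ApcMin/+ and at 12.8, 8.04 and 6.24 FPKM with Ctnnb1Δi.enh. The controls spread more widely than the knockouts and enclosed them, so the log2 difference of -0.01 (SE 0.48) ran from -0.43 without control replicate 3 to 0.49 without control replicate 1.

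Gstt1, the theta-class gene, was at 12.9, 13.8 and 22.8 FPKM in wild-type crypts and at 23.4, 16.7 and 20.5 FPKM in knockout crypts. Wild-type replicate 3 was again among the knockout values, and the log2 difference of 0.32 (SE 0.24) was 0.17 without wild-type replicate 1 and 0.57 without wild-type replicate 3. In tumors it was at 4.93, 2.26 and 2.45 FPKM in ApcMin/+ and at 4.35, 3.71 and 4.99 FPKM with Ctnnb1Δi.enh. Control replicate 1 lay inside the knockout range, the other controls lay below it, and the log2 difference of 0.45 (SE 0.27) was 0.27 without control replicate 2 and 0.76 without control replicate 1.

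The order of levels differed between the tables, which were normalized separately and are set side by side here only as levels. In wild-type crypts the means ran from 194 FPKM for Gstp1 through 72.9 for Gstm3, 42.0 for Gstm1, 24.1 for Gsta1, 17.7 for Gsta4, 16.5 for Gstt1, 12.2 for Gstm5, 8.19 for Gstm2 and 4.54 for Gstm7 to 1.02 for Gsta3. Gstp1 stood clear of Gstm3, Gstm2 of Gstm7, and Gstm7 of Gsta3, while each other pair of neighbours overlapped between libraries. In ApcMin/+ tumors the means ran from 106 FPKM for Gstp1 through 68.3 for Gstm5, 66.1 for Gstm1, 34.5 for Gstm7, 29.1 for Gsta4, 10.1 for Gsta3, 9.50 for Gstm2, 4.10 for Gstm3 and 3.21 for Gstt1 to 1.49 for Gsta1. There the pairs without overlap were Gstp1 and Gstm5, Gstm1 and Gstm7, Gsta4 and Gsta3, and Gstm2 and Gstm3. Gstm3 was thus at place 2 in crypts and 8 in tumors, and Gstm7 at place 9 in crypts and 4 in tumors.

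Summed over the 10 genes, the level was 327, 351 and 503 FPKM in wild-type crypts and 862, 573 and 517 FPKM in knockout crypts. All 3 knockout sums lay above the wild-type sums, although knockout replicate 3 and wild-type replicate 3 were close. In tumors the sums were 351, 329.7 and 317 FPKM in ApcMin/+ and 327, 341 and 348 FPKM with Ctnnb1Δi.enh, and overlapped. The share of the mu class in this sum was 30.0%, 39.4% and 36.4% in wild-type and 53.9%, 37.2% and 36.1% in knockout crypts. Knockout replicate 1 was the library with the high share. In tumors the mu share was 48.4%, 57.4% and 59.3% in ApcMin/+ and 45.5%, 45.8% and 47.5% with Ctnnb1Δi.enh, and each knockout library lay below each control. This share includes Gstm7, whose values chose the group. The mu-class sum averaged 182 and 157 FPKM in control and knockout tumors, and Gstm7 averaged 34.5 and 20.8 FPKM. Gstm7 made up 13.8% to 21.6% of the mu-class FPKM in control tumors and 10.9% to 15.6% in knockout tumors, with overlap. In crypts, where the FPKM of Gstm7 was higher in each knockout library, its share of the mu class averaged 3.51% ± 1.37 (SD, n = 3) for wild-type and 3.30% ± 0.940 (SD, n = 3) for knockout libraries, again with overlap.

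**Figure D4:**
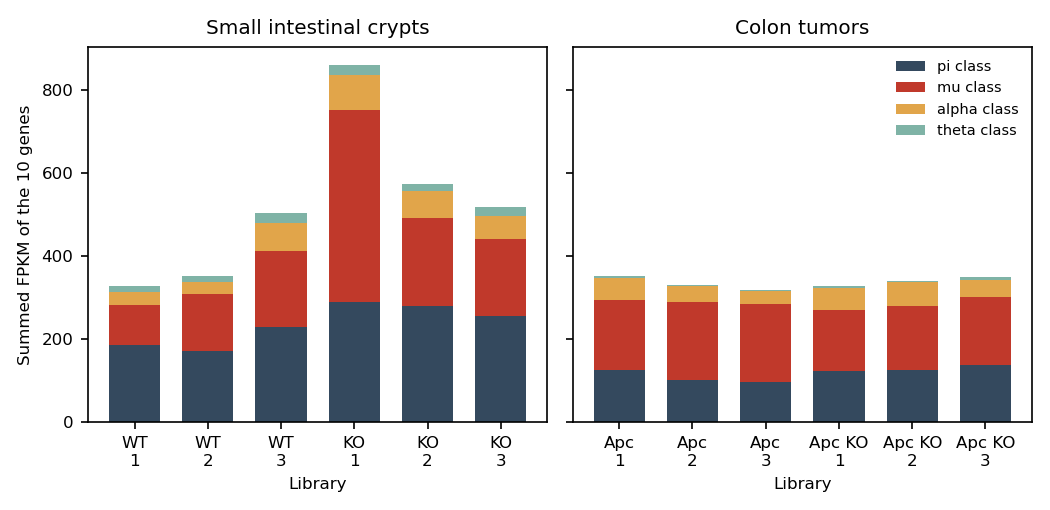
Summed FPKM of the 10 genes in each library, stacked by class, in crypts (left; WT, wild type; KO, Ctnnb1Δi.enh) and tumors (right; Apc, ApcMin/+; Apc KO, ApcMin/+ with Ctnnb1Δi.enh). Bars start at 0, and the tallest, knockout crypt replicate 1, reaches 862 FPKM, of which 464 FPKM is mu class.

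Promoter windows were read for 9 of the 10 genes from RefSeq (GRCm38.p6), from 250 bases before to 50 bases after each annotated start, since several of these genes were higher together in crypts. Gsta4 had no entry. The antioxidant response element core TGACNNNGC, searched on both strands, was in 3 of the 11 windows (Gsta3, Gstm5 and the window of a second Gstm7 start, which lies inside the gene), and in 12.4% of all 32851 windows. The NRF2-MAF motif TGANTCAGC, which has fewer free positions, coincides with the core where its N is C and was added after the Gstp1 sequence had been seen, was in the window of Gstp1 and in 1.19% of all windows. The TCF motif CTTTGAT was in 0 of the 11 windows and in 3.73% of all. The 3 windows with a match upstream of the gene are printed, and capitals mark the motif found. They belong to Gstm5 and Gstp1, whose crypt groups did not overlap, and to Gsta3, whose crypt mean was lower in the knockout.
Gsta3, chr1:21240335-21240634, plus strand: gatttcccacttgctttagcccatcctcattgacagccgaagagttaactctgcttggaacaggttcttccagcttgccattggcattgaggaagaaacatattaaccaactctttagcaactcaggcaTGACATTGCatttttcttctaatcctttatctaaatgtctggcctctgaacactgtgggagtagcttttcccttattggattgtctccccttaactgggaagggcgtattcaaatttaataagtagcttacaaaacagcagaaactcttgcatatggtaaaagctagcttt
Gstm5, chr3:107895604-107895903, plus strand: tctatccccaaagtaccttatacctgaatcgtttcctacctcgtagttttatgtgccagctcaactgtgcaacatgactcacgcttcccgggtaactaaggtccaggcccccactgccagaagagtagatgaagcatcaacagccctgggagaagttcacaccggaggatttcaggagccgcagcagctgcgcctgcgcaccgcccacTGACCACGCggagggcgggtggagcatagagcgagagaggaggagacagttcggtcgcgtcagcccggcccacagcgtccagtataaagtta
Gstp1, chr19:4037863-4038162, minus strand: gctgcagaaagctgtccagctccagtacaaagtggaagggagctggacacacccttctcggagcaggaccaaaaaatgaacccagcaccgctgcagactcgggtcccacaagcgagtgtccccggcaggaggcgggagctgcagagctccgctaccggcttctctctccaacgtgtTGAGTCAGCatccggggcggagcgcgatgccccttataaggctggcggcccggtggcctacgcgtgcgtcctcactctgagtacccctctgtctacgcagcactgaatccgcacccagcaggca

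The Gsta3 match began 121 bases before its annotated start, the Gstm5 match 42 bases before and the Gstp1 match 74 bases before. The Gstm7 match lay 74 bases after the 5′ end of the gene, inside its transcribed part, and is not an upstream match. A match is a run of letters and not evidence of binding. The first window of Gstm7 and the windows of Gstm1, Gstm2 and Gstm3 held 0 of these motifs. Gstp2, the near copy of Gstp1, also held TGANTCAGC.

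The 3 genes most like Gstm7 were found by the mean absolute difference of log2(FPKM + 0.5), centred within each tissue, over the 12 libraries and among the 13369 other genes tested in both tissues. They were Slc4a5, a bicarbonate transporter (0.126), Adh6a, an alcohol dehydrogenase (0.182), and the predicted gene Gm17586 (0.182). Slc4a5 was at 2.27, 2.37 and 2.41 FPKM in wild-type and 6.50, 3.64 and 4.40 FPKM in knockout crypts. In both genes knockout replicate 1 was the highest crypt library and knockout replicate 2 the lowest of the knockouts. Of the other 9 genes of the group, Gstm5 stood at place 225 and Gstm1 at place 594 in this order, and Gsta1 at place 12832. These genes were selected for likeness, so no test applies.

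**Figure D5:**
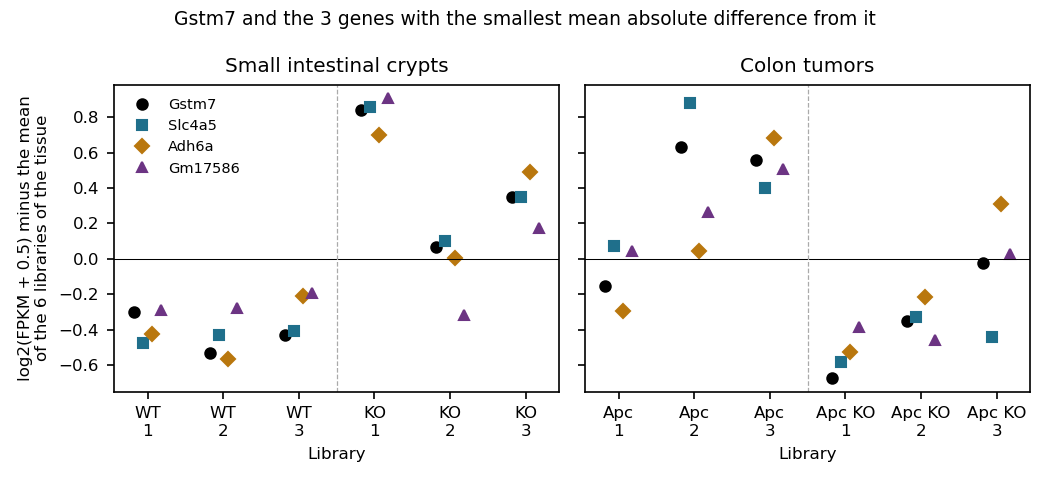
log2(FPKM + 0.5) of Gstm7, Slc4a5, Adh6a and Gm17586 in each library, after subtracting the mean of the 6 libraries of the tissue, in crypts (left; WT, wild type; KO, Ctnnb1Δi.enh) and tumors (right; Apc, ApcMin/+; Apc KO, ApcMin/+ with Ctnnb1Δi.enh). The dashed line separates control from knockout libraries, and Slc4a5 has a mean absolute difference of 0.126 from Gstm7.

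Outside the 10 genes, a list of 23 other glutathione S-transferase and related membrane enzymes had 21 entries in the tables and 18 tested genes in each tissue. The list was set with earlier results of these data known. It holds Gstm4 and Gstm6 of the Gstm7 cluster and Gsta2, 97.5% identical to Gsta1 in coding sequence, so nothing is read from its counts. In crypts 16 of the 18 had a higher log2 mean in the knockout, beside 52.8% of all tested genes, and 7 of them had an unadjusted p under 0.05, beside 3.48% of all, or 4 of them without knockout replicate 1. By the same p 0 were lower, beside 2.36%, and 0 passed an adjusted p under 0.05 by limma. Their median log2 difference was 0.34, against 0.01 over all genes. Gstk1, a mitochondrial and peroxisomal enzyme, averaged 11.5 and 18.4 FPKM in wild-type and knockout crypts (log2 difference 0.65, SE 0.17, limma adjusted p = 0.757) and 6.38 and 10.9 FPKM in control and knockout tumors (log2 difference 0.74, SE 0.19, limma adjusted p = 0.269), with no overlap in either tissue. In tumors 12 of the 18 were higher, beside 51.3% of all, 4 of them with an unadjusted p under 0.05, beside 8.46%, and the median was 0.21. The 4 included Mgst3 (70.6 and 105 FPKM, limma adjusted p = 0.272) and Gsto1 (60.8 and 93.1 FPKM, limma adjusted p = 0.295). Without control replicate 1, 6 were higher and 1 lower at that p.

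Cell type markers moved with the groups in tumors. Markers of goblet cells, led by Tff3, summed to 923, 832 and 829.6 FPKM in ApcMin/+ and to 1518, 2082 and 1798 FPKM with Ctnnb1Δi.enh. All 8 goblet genes were higher in each knockout library than in each control, beside the 11.4% of all tested genes given above. Those of colonocytes, led by Car1, summed to 239, 183 and 205 FPKM and to 329.9, 528 and 365 FPKM, and those of stroma, led by Col1a1, to 461, 329 and 302 FPKM and to 479, 574 and 489.7 FPKM. The sums of all 3 lists were higher in the knockouts without overlap, and none of their genes was at 0. Gene by gene, 8 of 8 colonocyte markers had a higher log2 mean, 4 without overlap, and 9 of 10 stroma markers, 5 without overlap, while Des was lower. The sum of stem cell markers, led by Axin2, was lower, at 283, 307 and 304 FPKM and at 271, 247 and 261 FPKM. Of the 6 tested, 5 had a lower log2 mean, 2 of them (Axin2 and Rnf43) without overlap, beside 10.6% of all tested genes. Axin2 had already been read as a check of the labels. Sox9 was at 44.1, 38.8 and 43.5 FPKM in controls and higher in each knockout, at 44.8, 49.1 and 44.6 FPKM. Lgr5, at 21.5 FPKM, was highest in knockout replicate 1. Single genes of these lists are named after their values were seen. The mean of Gstm7 and the mu-class share, which includes Gstm7, were lower in the same knockout tumors, and the part of cell composition in that was not tested.

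In crypts the summed markers of enterocytes, led by Fabp2, were at 4037, 5677 and 10808 FPKM in wild type and at 8903, 6667 and 9931 FPKM in the knockout, with overlap and with none of the 10 markers at 0. Gene by gene, 9 of the 10 had a higher log2 mean in the knockout, with a median log2 difference of 0.53, where the median of the 10 glutathione S-transferases was 0.57. Named after their values were seen, Rbp2 and Mttp were the 2 without overlap, beside 6.79% of all tested genes. Wild-type replicate 3, which held the wild-type maximum of each of the 10 genes other than Gstm5 and Gstm7, also held the highest enterocyte sum. Paneth cell markers, led by Defa24, were at 22528, 33387 and 60020 FPKM in wild type and at 24515, 21688 and 23780 FPKM in the knockout, again highest in wild-type replicate 3. All 9 Paneth genes had a lower log2 mean in the knockout, with a median log2 difference of -0.64, and 2 of them, Lyz1 and Mmp7, were lower without overlap, beside 5.15% of all tested genes. Without wild-type replicate 3 the log2 difference of Gstp1 was 0.63 and that of Gstm7 was 0.84. The part of enterocyte, Paneth and stomach cell content in the levels of these genes was not tested.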

How the data were processed

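RNA-seq was done on 6 crypt and 6 tumor libraries. Per the study's methods and processing notes, reads were trimmed, aligned to mm10 with HISAT2 and counted on genes; Cufflinks 2.2.1 is also named. The authors deposited FPKM per gene and library, 1 table per tissue, replicates not pooled. FPKM times gene length was a whole multiple of 1 step in 100% of values, within 0.05, which gave the fragments per library and per gene.

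limma 3.58.1 in R 4.3.3 was fitted with a variance trend to log2(FPKM + 0.5) of the 6 libraries of a tissue, over genes with a mean of at least 0.5 FPKM, with Benjamini-Hochberg adjustment over all of them. The 10 members were among the genes fitted, but no test is reported for them, because measured values chose the group. The step was tested on simulated data. Members and gene lists were chosen with earlier results of these data known. Outside the 10 genes, each list on glutathione and conjugation gave up to 5 genes per tissue with the smallest unadjusted p under 0.05. Where a list had none, it gave the 2 with the highest mean. Not all of these genes are named. Also named are the 3 genes most like Gstm7, and Ctnnb1, Axin2 and Xist. Single marker genes and the genes flagged for opposite directions are named too. Gene copies named beside Gstp1, Gsta1 and Gstm5 were chosen after their sequences were compared. Alternatives were other pseudocounts, filters, scalings and variance models, voom on recovered fragments, a replicate block, sex as a covariate and leaving out each library.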

Additional observations from a re-analysis of the deposited data

Results flagged for a closer look

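Among the genes named and those of the marker lists, 5 had each knockout library on one side of each control library in crypts and on the other side in tumors. Ugt2b35, a glucuronosyltransferase, had a log2 difference of 0.47 in crypts, where means were 10.4 and 14.7 FPKM, and of -1.09 in tumors, where they were 9.29 and 4.21 FPKM. Nr1h4, the bile acid receptor FXR, had -0.42 in crypts and 0.41 in tumors. Ggt5, which cleaves glutathione conjugates, had -0.24 in crypts, at means of 0.283 and 0.164 FPKM below the filter, and 0.55 in tumors. Slc4a5, selected for its likeness to Gstm7, had 0.87 in crypts and -0.90 in tumors. Atp4a, a stomach marker, had 0.48 in crypts, below the filter, and -0.66 in tumors. The difference between the tissues was not tested for any of them. Among the 13370 genes tested in both tissues, 109 (0.815%) had this pattern, which includes Ugt2b35, Nr1h4 and Slc4a5, the last of them by its selection, and leaves out Ggt5 and Atp4a, which were not tested in crypts. Nothing is read from the number of genes listed here. Gstm7 is not among the 5, because its tumor groups overlapped.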

How the results depend on the processing

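The log2 difference of Gstm7 kept its sign under each alternative, from 0.63 to 1.02 in crypts and from -0.95 to -0.53 in tumors on leaving out 1 library. Across the 10 genes, 159 alternative values in crypts and 167 in tumors moved by less than 1 SD within groups, and 3 moved by more, all in tumors with quantile normalization: Gstm1 to -0.43, Gstm5 to -0.25 and Gstp1 to 0.08. Leaving out 1 library of 3 cannot move a difference by 1 such SD, which fixed 60 of the values in each tissue. No filter, no variance trend, a replicate block and sex as a covariate leave the difference itself unchanged. Nothing is therefore read from the number that did not move.

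Counts of genes depended more on the setting, and the cause was not tested. With an adjusted p under 0.05, 1 gene passed in tumors without the variance trend, and leaving out 1 library gave 0 to 3 in crypts, the 3 without wild-type replicate 3, and 0 in tumors. At an unadjusted p under 0.05, rescaling without the 50 highest genes gave 298 higher and 504 lower in crypts against 494 and 335, and no filter gave 635 lower, with more genes tested. Leaving out 1 library gave 241 to 735 higher and 217 to 641 lower in crypts, and 850 to 1634 higher and 546 to 1118 lower in tumors. In tumors the split of 1417 higher and 1004 lower was 1075 and 1346 with the same total, 1111 and 1284 with quantile normalization, and 1079 and 1340 without the 50 highest genes. An unadjusted p under 0.05 was lost under some setting for 13 named genes in crypts and 7 in tumors, and Ctnnb1 in crypts gained one.

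Counts of the 6 lists moved too. In crypts the 25 higher genes became 11 without knockout replicate 1 and 32 without wild-type replicate 3, 14 with quantile normalization and 17 without the 50 highest genes or with a replicate block, and the 2 lower genes became 2 to 5 on leaving out 1 library. In tumors the 25 and 5 became 19 and 3 without control replicate 2 or 3, and 33 and 6 without control replicate 1. By list, in both directions together, leaving out 1 library gave in crypts 4 to 9 other transferases, 1 to 5 genes of glutathione metabolism, 1 to 7 peroxidases, 3 to 6 NRF2-related genes, 4 to 8 other conjugating enzymes and 0 to 3 regulators. In tumors it gave 4 to 7, 1 to 6, 5 to 9, 3 to 7, 3 to 6 and 5 to 8 in the same order.

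Same-numbered libraries did not deviate together (correlations -0.047, -0.122 and 0.037 in crypts, 0.054, -0.090 and 0.053 in tumors). With a replicate block, 394 genes were higher and 338 lower in crypts and 1160 and 722 in tumors at an unadjusted p under 0.05, and 0 at an adjusted p under 0.05. Fragments were fewest for Gsta1 in tumors (8 to 75, SE 0.46) and Gsta3 in crypts (31 to 96, SE 0.29).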

Other observations

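Of the 131 genes of 6 lists on glutathione and conjugation outside the 10 members, 120 were tested in crypts and 121 in tumors, and 0 passed an adjusted p under 0.05 by limma in either. Without adjustment, a p under 0.05 was found for 25 genes that were higher and 2 that were lower in crypts, and for 25 and 5 in tumors, beside 3.48% and 2.36% of all tested genes in crypts and 8.46% and 6% in tumors. The 25 in crypts were 11 without knockout replicate 1. The lists were set with earlier results of these data known, so nothing is read from these counts. In crypts, Nqo1, an NRF2 target that reduces quinones, averaged 12.5 and 21.1 FPKM in wild type and knockout (log2 difference 0.73, SE 0.12, limma adjusted p = 0.728), with all 3 knockout libraries above the controls. Its tumor groups overlapped (log2 difference 0.15, SE 0.29). Of the 24 NRF2-related genes, all tested in both tissues, 4 were higher at an unadjusted p under 0.05 in crypts and 5 in tumors, and 0 were lower in either. In tumors the 5 were 3 without control replicate 3 or knockout replicate 3, and 3 with quantile normalization or a replicate block. Hmox1, heme oxygenase, averaged 28.5 and 66.0 FPKM in control and knockout tumors (log2 difference 1.22, SE 0.31, limma adjusted p = 0.269). Its crypt groups overlapped (log2 difference -0.06, SE 0.42).

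Of the 27 genes of glutathione synthesis, reduction and breakdown, 24 were tested in crypts and 27 in tumors. By the same unadjusted p, with the shares over all genes given above (3.48% higher in crypts and 8.46% in tumors), 5 were higher and 0 lower in crypts, and 2 higher and 2 lower in tumors. The 5 were 1 without knockout replicate 1, 2 without knockout replicate 2, and 3 without wild-type replicate 2 or knockout replicate 3. They were 2 with quantile normalization or a replicate block, and 3 with the same total or without the 50 highest genes. In tumors 4 were higher without control replicate 1, and 0 without control replicate 2 or without knockout replicate 2 or 3. The tumor count was also 0 with the same total, without the 50 highest genes, without the variance trend, with a replicate block or with sex as a covariate. Slc7a11, the cystine importer, was lower in tumors at 7.85 and 5.01 FPKM (log2 difference -0.59, SE 0.12, limma adjusted p = 0.269). By that p and beside the same shares, of the 18 peroxidase and peroxiredoxin genes, 4 of 16 tested were higher in crypts and 8 of 18 in tumors, and 0 lower. The 4 were 1 without knockout replicate 1 or 2 or with quantile normalization, 2 without wild-type replicate 2 and 7 without wild-type replicate 1, and the 8 were 5 without control replicate 2 or 3. Txn1, thioredoxin, was higher without overlap in both, at 455 and 621 FPKM in crypts and 241 and 367 FPKM in tumors. Of the 22 other conjugating enzymes and pumps, 5 were higher and 2 lower among 21 tested in crypts, and 1 higher and 3 lower among 18 tested in tumors, where 6% of all genes were lower. The 5 were 2 without wild-type replicate 1 or knockout replicate 1 and with quantile normalization, and 3 without wild-type replicate 3 or knockout replicate 3. The 2 lower in crypts were 4 without wild-type replicate 1. In tumors 4 were higher and 2 lower without knockout replicate 1, and 1 and 5 without knockout replicate 2. With a replicate block or with sex as a covariate, 3 were higher and 3 lower in tumors. Of the 17 regulators, 0 of 17 tested had an unadjusted p under 0.05 by limma in crypts, where voom gave 2 and leaving out wild-type replicate 3 gave 3, and 5 of 16 tested were higher in tumors, or 8 without control replicate 1, among them Cebpb at 29.7 and 47.0 FPKM (log2 difference 0.65, SE 0.08, limma adjusted p = 0.269).

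Of the remaining marker lists, in tumors the sums of enterocyte, enteroendocrine and endothelial markers were higher in each knockout library than in each control and that of stomach markers was lower, with Vil1 at 95.5% of the enterocyte sum and 4 of the 10 enterocyte markers under 0.1 FPKM on average, while the sums of Paneth, tuft and leukocyte markers overlapped. Gene by gene, 9 of 9 Paneth markers had a higher log2 mean in knockout tumors, with a median log2 difference of 0.38 and 0 without overlap. In crypts the sums of all 11 lists overlapped between the groups, although log2 means of single genes were higher in the knockout for 9 of 10 enterocyte markers and lower for 9 of 9 Paneth, 6 of 7 enteroendocrine, 6 of 8 goblet and 4 of 4 tested stomach markers. These 4 stomach markers had a median log2 difference of -2.95, and each had an unadjusted p under 0.05 by limma, beside 2.36% of all tested genes. Only 4 of the 8 on the list passed the filter, which favors genes high in wild-type replicates 1 and 2, where the list summed to 161 and 91.7 FPKM. Wild-type replicate 3, at 4.25 FPKM, lay within the knockout range of 2.07 to 6.10 FPKM. Atp4a, below the filter, was higher in the knockout (log2 difference 0.48). Nothing is read from the count of 4. Il25, a tuft cell gene, was at 0 in every tumor library, and S100a8, a neutrophil gene, in every crypt library.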
